A study of Mus musculus with 5 samples.

Results

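Rab GTPases are the small GTP-binding proteins that label the membranes of a cell and steer the carriers that move between them. Transcripts of this family were read in the nucleus accumbens of cocaine-treated and saline-treated mice through 121 array spots for 59 genes, of 32042 spots for 19087 genes in all. A spot was a member if the platform annotation paired it with exactly 1 gene symbol made of Rab, a number and at most a letter and a digit. Proteins that regulate or bind Rabs, such as Rab11fip5, were not members. Of the 59 genes, 23 had 1 spot, 23 had 2 and 13 had 3 or more.

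The arrays compared male C57BL6 mice that had gone through conditioned place preference, in which a drug is paired with a compartment of a cage and the later preference for it is scored. The cocaine group received 15 mg/kg on days 2, 3 and 4 and scored low for the preference, and the control group received saline on the same days. The drug and the low score therefore come together in every cocaine sample and cannot be told apart here, and the age of the mice is not given in the sources used here. Each of the 5 arrays set accumbens RNA of 1 mouse given cocaine against that of 1 mouse given saline, with the cocaine RNA in the dye Cy5 on 3 arrays and in the dye Cy3 on 2. The cocaine samples of cocaine-in-Cy5 replicates 1 and 2 carry names that differ by a suffix alone, so they could be from 1 animal.

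A Rab protein cycles between a GTP-bound form on the membrane and a GDP-bound form in the cytosol. Exchange factors load GTP, GTPase-activating proteins end the active state, GDI takes the protein off the membrane, and effectors such as tethers, motors and sorting proteins carry out the work. In neurons Rab3 proteins sit on synaptic vesicles, Rab1, Rab2 and Rab6 proteins serve the endoplasmic reticulum and the Golgi, and Rab5, Rab11 and Rab7 proteins mark early, recycling and late endosomes.

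The deposited value of a spot is a log2 ratio of the 2 treatments. Which treatment is the numerator is not stated, so a value below 0 is said to lie on the denominator side and a value above 0 on the numerator side. All 5 arrays were read as turned the same way, since 184 of 238 features without a gene and with extreme ratios switched sign with the dye orientation and 0 kept one sign. For cocaine-in-Cy5 replicate 1 the measures of direction differ. The 184 features were counted only where all arrays of an orientation, this one included, shared a sign. Its background spots stood at -0.66, beside -0.61 and -0.55 on the other arrays of its orientation. Over all gene spots, however, its ratios correlated at -0.60 and -0.76 with those 2 arrays, and at 0.76 and 0.73 with the 2 of the other orientation. Above background these correlations were 0.08 and -0.20 within its orientation and 0.02 and 0.12 with the other. After removal of the brightness trend they were 0.17 and -0.08, and -0.21 and -0.01. Its direction is treated here as not settled. Treatment ratios with its sign turned, called turned ratios, are therefore given for the counts over the family and for the Rab spots above background that are named.

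Spot brightness, the log2 geometric mean of both channels, was recovered from the ratios, and gene spots over 7.5 were taken as above background. The accumbens label was checked with these spots. Of 8 genes that mark accumbens projection neurons, 8 had a spot above background: Drd1, Drd2, Pde10a, Pdyn, Penk, Ppp1r1b, Rgs9 and Tac1. So did 3 of 7 astrocyte, 3 of 6 oligodendrocyte, 0 of 5 microglial, 1 of 5 endothelial and 1 of 4 choroid plexus markers. Blood was represented by 3 of 4 genes, all globins. No spot of a marker passed the test of the treatment in either fit. With the trend removed, 5 of the 9 projection neuron spots lay on the numerator and 4 on the denominator side, and 3, all on the numerator side, had an unadjusted p under 0.05. So did 1 endothelial spot (Flt1) on the denominator side and 2 globin spots, one on each side, where 6.9% of all spots were at that level. With the sign of cocaine-in-Cy5 replicate 1 turned, the projection neuron spots lay 8 and 1 on these sides. The part of these cells in the Rab values was not tested. In bulk tissue, fewer cells of a type and less RNA per cell cannot be told apart.

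Of the 59 Rab genes, 21 (35.6%) had a spot above background, against 3396 of 19087 genes (17.8%). They were spread over all the transport steps. Synaptic vesicle and regulated exocytosis Rabs had 1 of 8 genes above background, Rab3a. Endoplasmic reticulum and Golgi Rabs had 6 of 12, namely Rab1a, Rab1b, Rab2a, Rab6a, Rab6b and Rab33a. Surface-bound carrier and plasma membrane Rabs had 3 of 6 (Rab10, Rab15 and Rab35) and early endosomes 2 of 7 (Rab5a and Rab5c). Recycling endosomes had 1 of 7 (Rab11a), and late endosomes, lysosomes and autophagy 4 of 11 (Rab7, Rab9, Rab9b and Rab24). Ciliary and less known Rabs had 4 of 8, which were Rab28, Rab34, Rab40b and Rab40c. The other 38 genes had no spot over 7.5, which does not show that their transcripts were absent. Just inside the threshold lay a Rab5a spot at the threshold itself and spots of Rab1b and Rab5a at 7.60 each, and just outside it 3 further Rab5a spots between 7.42 and 7.44.

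Cocaine and saline were compared first on the ratios as deposited. The test was limma with the treatment mean and the dye orientation as terms, over 43790 features with Benjamini-Hochberg adjustment. No Rab spot passed an adjusted p of 0.05: 0 of 121 did, as did 0 of 43790 features (0%), and the smallest adjusted p in limma was 0.731. At an unadjusted p under 0.05 there were 3 Rab spots, while 998 of all features (2.28%) were at that level. With the sign of cocaine-in-Cy5 replicate 1 turned there were 0, against 0.244% of all features. Over genes the median Rab log2 ratio was -0.16, with 48 of 59 on the denominator side, against -0.04 and 68.8% for all genes. With the sign of cocaine-in-Cy5 replicate 1 turned the median was 0.18, with 2 of 59 on the denominator side, against 0.19 for all genes. The side as deposited thus changes with the reading of this array for genes in general, not for the Rabs alone. With this array turned, the background values of the dye orientations no longer cancel. The share of all genes by side was not counted in the turned fit, so the turned count gives no side particular to the family.

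The 3 spots at an unadjusted p under 0.05 all lay below background. Rab34, which takes part in the formation of cilia, had a dim spot (feature 4902) with deposited log2 ratios of -0.58, -0.51 and -0.52 with cocaine in Cy5 and 0.72 and 0.83 with cocaine in Cy3. Its treatment ratio was 0.12 ± 0.04 (SE, n = 5 arrays). The dim spot of Rab17, a Rab of polarized recycling, gave -0.63, -0.71 and -0.68 with cocaine in Cy5, 0.43 and 0.50 with cocaine in Cy3 and a treatment ratio of -0.10 ± 0.03. In both spots the orientations lay far apart and their means nearly cancelled, as for background spots in general, which stood at -0.66, -0.61 and -0.55 in one orientation and at 0.57 and 0.64 in the other. Rab23, which restrains Hedgehog signalling, had a spot (feature 25457) at -1.05, -0.51, -0.34, -0.19 and 0.12 in the same order, with a treatment ratio of -0.34 ± 0.13. Its other 2 spots, also below background, gave -0.28 ± 0.14 and 0.06 ± 0.07, on opposite sides. In the turned fit to the deposited ratios, where limma gave every Rab spot a standard error of 0.30, the 3 named spots stood at 0.31 (Rab34), 0.11 (Rab17) and 0.01 (Rab23).

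**Figure D1:**
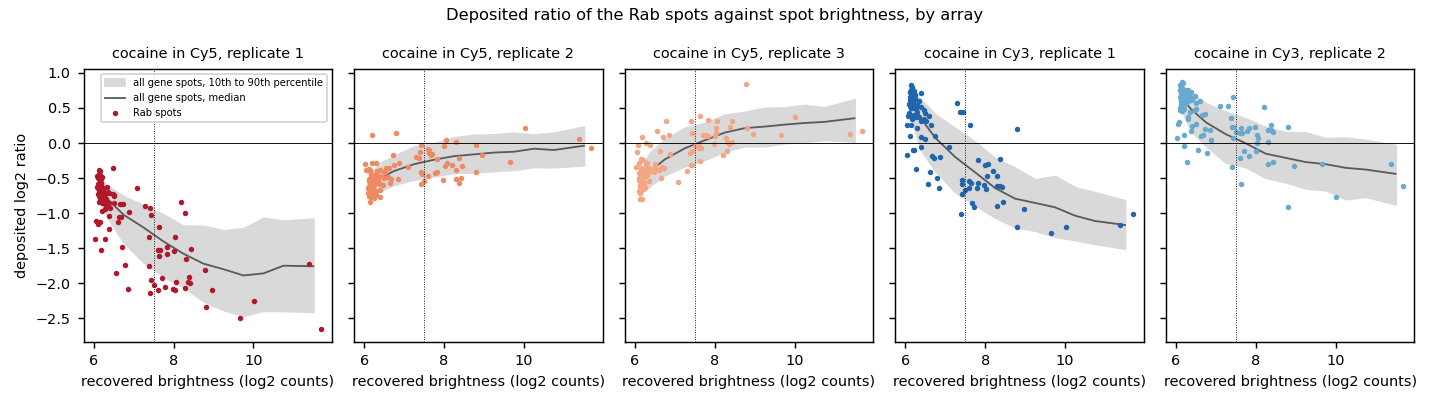
Deposited log2 ratio (vertical axis) of the 121 Rab spots (points) against recovered spot brightness on the log2 scale (horizontal axis), one panel per array. The line and band are the median and the 10th to 90th percentiles of all gene spots, and the dotted line is the threshold of 7.5. The trend differs in height and slope between arrays, and at brightness 8 it runs from -1.51 on cocaine-in-Cy5 replicate 1 to 0.11 on cocaine-in-Cy5 replicate 3.

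The 30 Rab spots above background had median deposited log2 ratios of -1.92, -0.25 and 0.11 with cocaine in Cy5 and of -0.62 and 0.05 with cocaine in Cy3. All gene spots above background had medians of -1.58, -0.18, 0.16, -0.69 and -0.16 on the same arrays. The median standard error of the 30 spots was 0.34, and the 95% interval excluded a 2-fold difference in 3 of them. Each array's trend of ratio on brightness was therefore removed, and the 3899 gene spots above background were tested again in the same way.

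With the trend removed, 0 of 30 Rab spots passed the threshold, as did 0 of 3899 spots (0%). The smallest adjusted p in limma was 0.671. At an unadjusted p under 0.05 there were 0 of 30 Rab spots against 269 of 3899 (6.9%). The 21 genes had a median log2 ratio of -0.05, with 12 on the denominator and 9 on the numerator side. For 3396 genes the median was 0.00, with 49.6% on the denominator side. With the sign of cocaine-in-Cy5 replicate 1 turned the Rab median was 0.01, against -0.01 for all genes. The Rab genes then lay 9 and 12 on these sides, and 20 of 30 spots kept their side. In that fit 2 of 30 Rab spots, both of Rab2a, had an unadjusted p under 0.05, against 265 of 3899 spots. Standard errors ran from 0.07 to 0.16. The 95% interval stayed within 2-fold for 30 of 30 Rab spots, with bounds between -0.55 and 0.64, and for 99.6% of all spots. These intervals take the recovered brightness as exact, though its SD in the recovery ran from 0.24 to 0.61 for the Rab spots. They bound the ratio as measured and, where background remains in the signal, do not bound the change of the transcript.

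**Figure D2:**
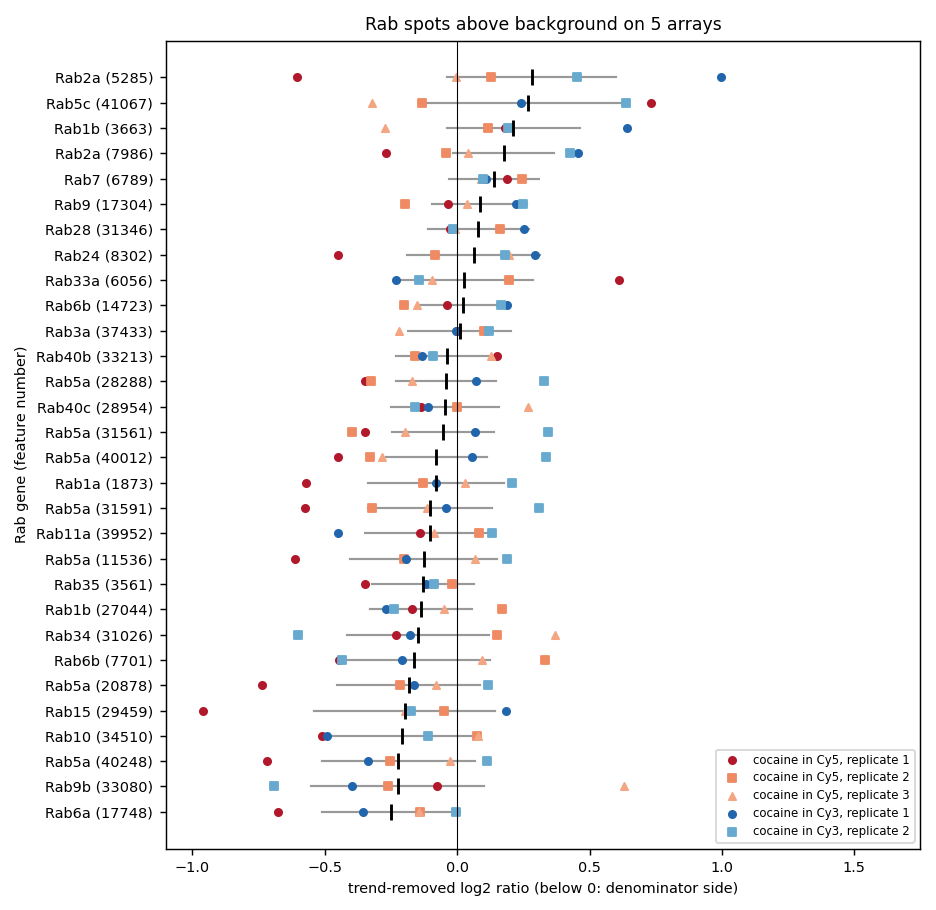
Trend-removed log2 ratios (horizontal axis) of the 30 Rab spots above background, with one row per spot (gene and feature number), ordered by treatment ratio. Each symbol is 1 array, the black tick is the treatment ratio of the fit and the grey line its 95% interval. Every interval includes 0, and the treatment ratios run from -0.25 for Rab6a to 0.28 for a Rab2a spot.

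**Figure D3:**
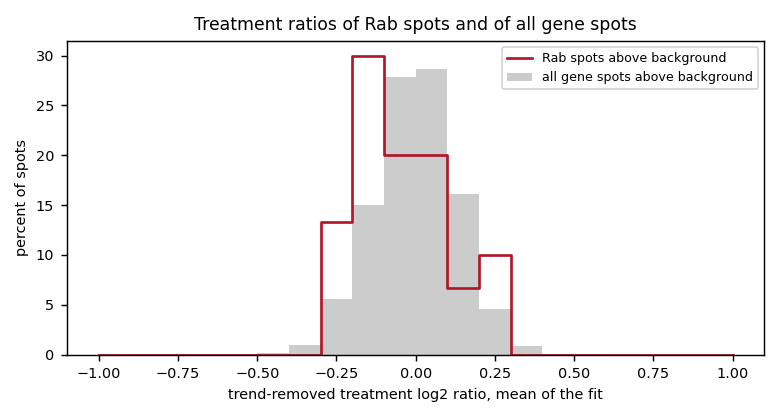
Percent of spots (vertical axis) by trend-removed treatment log2 ratio (horizontal axis) for the 30 Rab spots (line) and all 3899 gene spots above background (bars). The Rab spots lie between -0.25 and 0.28, within the range of all gene spots.

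Rab3a, the Rab of synaptic vesicles that holds them ready for release at the terminal, stood near 0. Its trend-removed log2 ratio was -0.00057, 0.10 and -0.22 with cocaine in Cy5 and -0.0062 and 0.12 with cocaine in Cy3. The treatment ratio was 0.01 ± 0.08 (SE, n = 5 arrays), the turned ratio was also 0.01 ± 0.08, and the 2 orientations overlapped. As deposited the same spot had read -1.72, 0.06, 0.13, -1.17 and -0.30, with a treatment ratio of -0.62 ± 0.35. Its paralogue Rab3c lay below background, and the spot listed for it (feature 22953) gave -0.73, -0.59 and -0.42 against 0.48 and 0.68 as deposited, the pattern of background spots. Its treatment ratio was -0.0021 ± 0.065.

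Golgi and endoplasmic reticulum Rabs lay on both sides. Rab6a, which directs traffic within the Golgi and back to the endoplasmic reticulum, had trend-removed log2 ratios of -0.68, -0.14 and -0.14 with cocaine in Cy5 and of -0.36 and -0.0045 with cocaine in Cy3. All 5 lay on the denominator side, and the treatment ratio was -0.25 ± 0.11 (adjusted p 0.671 in limma). Its turned ratio was -0.02 ± 0.14. Rab6b, the paralogue that is abundant in neurons, had 2 spots that differed. Its feature 7701 gave -0.45, 0.33, 0.09, -0.21 and -0.43, with a treatment ratio of -0.16 ± 0.12, and its feature 14723 a treatment ratio of 0.02 ± 0.07. The turned ratios were -0.02 ± 0.09 and 0.04 ± 0.08. The arrays of the first spot lay on both sides of 0, and the 95% interval of both spots included 0.

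Rab2a, which acts between the endoplasmic reticulum and the Golgi and in the making of dense-core vesicles, lay on the numerator side in both its spots. Feature 7986 gave trend-removed log2 ratios of -0.27, -0.04 and 0.04 with cocaine in Cy5 and 0.46 and 0.43 with cocaine in Cy3. Feature 5285 gave -0.61, 0.13 and -0.0026 on the first and 0.996 and 0.45 on the second. In both spots the cocaine-in-Cy3 arrays lay above all cocaine-in-Cy5 arrays. The treatment ratios were 0.18 ± 0.08 and 0.28 ± 0.14, each with an adjusted p of 0.671 in limma. The turned ratios were 0.27 ± 0.08 and 0.48 ± 0.12, each with an adjusted p of 0.635 in limma.

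Rab1a and Rab1b carry cargo from the endoplasmic reticulum to the Golgi. Rab1a gave trend-removed log2 ratios of -0.57, -0.13, 0.03, -0.08 and 0.21 over the arrays in the same order, with a treatment ratio of -0.08 ± 0.11 and a turned ratio on the other side, 0.11 ± 0.12. The 2 spots of Rab1b lay on opposite sides. Feature 3663 gave 0.18, 0.11, -0.27, 0.64 and 0.19 with a treatment ratio of 0.21 ± 0.11, and feature 27044 had a treatment ratio of -0.14 ± 0.08. Their turned ratios were 0.15 ± 0.10 and -0.08 ± 0.08. The gene mean of Rab1b, 0.04, thus averages spots that disagree in sign. Rab33a, a Golgi Rab of brain and immune cells, stood at 0.02 ± 0.11, with a turned ratio of -0.18 ± 0.12.

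The group of surface-bound carrier and plasma membrane Rabs lay on the denominator side in all 3 of its genes above background. Rab10, which drives carriers to the cell surface and along the axon, gave -0.51, 0.08 and 0.08 with cocaine in Cy5 and -0.49 and -0.11 with cocaine in Cy3, with a treatment ratio of -0.21 ± 0.12. Rab15, a neuron-enriched Rab of endocytic recycling, stood at -0.20 ± 0.14, and Rab35, which returns cargo quickly to the surface, at -0.13 ± 0.08. Rab35 lay on the denominator side of 5 of 5 arrays. Without a test that any of them passed, the shared side is a count of 3 genes, and with the sign of cocaine-in-Cy5 replicate 1 turned 2 of the 3 lay there. The turned ratios were -0.04 ± 0.10 for Rab10, 0.12 ± 0.18 for Rab15 and -0.01 ± 0.09 for Rab35.

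Rab5a, the Rab of early endosomes and of their fusion, had 12 spots, 11 of them for 1 transcript accession, and these show the spread between spots within an array. Of the 11, 10 lay within 0.25 of their median on every array. Their deposited log2 ratios had medians of -2.06, -0.51 and -0.01 with cocaine in Cy5 and -0.62 and 0.17 with cocaine in Cy3, with an SD over spots of 0.04 to 0.09. Cocaine-in-Cy5 replicate 1 lay far below the other arrays in these spots, while the spots of cocaine-in-Cy5 replicate 2 overlapped those of cocaine-in-Cy3 replicate 1, and those of cocaine-in-Cy5 replicate 3 those of cocaine-in-Cy3 replicate 2. The SD covers spots kept for lying close together and leaves out feature 4913. The treatment ratios of the 10 spots, which share the same 5 arrays and are not replicates of the treatment, ran from -0.56 to -0.51, with standard errors of 0.33 to 0.37. The last spot (feature 4913) gave -1.03, -0.44, -0.32, 0.45 and 0.65 and a treatment ratio of -0.02 ± 0.12.

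**Figure D4:**
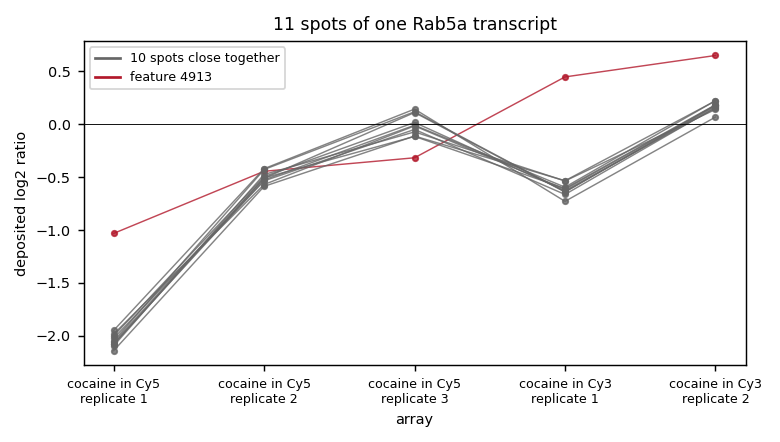
Deposited log2 ratio (vertical axis) of the 11 spots of one Rab5a transcript on each of the 5 arrays (horizontal axis), with one line per spot. The 10 grey spots move together over the arrays, with medians from -2.06 to 0.17, and feature 4913 stands apart on 4 of them.

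The same spots show a spread in the recovered brightness, since the 10 were placed between 6.85 and 8.42 and 7 of them above background. They do not bound its error, since spots repeated for 1 accession also served to compare the settings of the model. The trend-removed treatment ratios of these 7 ran from -0.22 to -0.04. Feature 40248, on the lower end of brightness, gave trend-removed log2 ratios of -0.72, -0.26, -0.03, -0.34 and 0.11 and a treatment ratio of -0.22 ± 0.12. Feature 28288, on the upper end, gave -0.35, -0.32 and -0.17 against 0.07 and 0.33, with a treatment ratio of -0.04 ± 0.08. The gene mean of Rab5a was -0.12, and the turned ratios of the 7 spots lay on the other side, from 0.02 to 0.09. These 2 spots had deposited treatment ratios of -0.56 and -0.53, so spots alike as deposited stood apart once the trend was removed at their own recovered brightness. Rab5c, its paralogue, stood at 0.27 ± 0.16, with arrays from -0.32 to 0.73 and a turned ratio of 0.02 ± 0.11.

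Recycling and late endosomes differed no more. Rab11a, the Rab of recycling endosomes that supplies receptors to dendritic spines, gave trend-removed log2 ratios of -0.14, 0.08 and -0.09 with cocaine in Cy5 and -0.45 and 0.13 with cocaine in Cy3. Its treatment ratio was -0.10 ± 0.10 and its turned ratio -0.06 ± 0.10. Rab11b, its neuron-rich paralogue, lay below background, with deposited ratios of -1.74, 0.14, 0.32, -0.50 and -0.15 in its listed spot (feature 7247) and a treatment ratio of -0.38 ± 0.35. Rab7, which takes late endosomes to the lysosome, lay on the numerator side of 5 of 5 arrays, at 0.19, 0.24, 0.09, 0.11 and 0.10. Its treatment ratio was 0.14 ± 0.07 (adjusted p 0.671 in limma), or 0.08 ± 0.09 with the sign of cocaine-in-Cy5 replicate 1 turned.

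Rab9 and Rab9b, which return receptors from late endosomes to the Golgi, lay on opposite sides, at 0.09 ± 0.08 and -0.22 ± 0.14, and at 0.10 ± 0.08 and -0.20 ± 0.14 as turned ratios. Rab24, a Rab of autophagy, stood at 0.06 ± 0.11, or 0.21 ± 0.10 turned. Of the ciliary and less known Rabs, Rab34 stood at -0.15 ± 0.11 in its spot above background and Rab28 at 0.08 ± 0.08. Rab40b and Rab40c, which bind ubiquitin ligases, stood at -0.04 ± 0.08 and -0.05 ± 0.09. These 4 kept their side in the turned ratios, which ran from -0.09 for Rab40b to 0.09 for Rab28. The 95% interval of each of these Rabs included 0.

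Of the 30 Rab spots, 1 lay on the numerator side of all 5 arrays (Rab7), against 2.23% of all gene spots above background. On the denominator side of all 5 arrays lay 2 (Rab6a and Rab35), against 2.72%. With the sign of cocaine-in-Cy5 replicate 1 turned these counts were 0 and 0, against 2.15% and 2.59%. The values of the 2 dye orientations did not overlap in 12 of 30 Rab spots, against 44.1% of all. If the deposited ratios were instead Cy5 over Cy3 on every array, the dye term would be the treatment. As deposited that reading called 72 of 121 Rab spots, against 78.4% of all features, at adjusted p under 0.05 in limma. With the trend removed 6 of 30 Rab spots had an unadjusted p under 0.05, against 21.4% of all spots, and 0 passed the adjustment. The 6 were 4 spots of Rab5a, which share a transcript, and both spots of Rab2a.

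The proteins that act on Rabs gave no call either. Of 66 regulators and effectors with 138 spots, 16 genes had a spot above background. None passed the threshold in either fit (0 of 138 spots and 0 of 16). At an unadjusted p under 0.05 there were 4 of 138 spots as deposited, where 2.28% of all features were at that level. With the trend removed there was 1 of 16, where 6.9% of all spots were. The 4 were all below background: Gcc2, a golgin of the trans-Golgi, at -0.12 ± 0.04, Rab11fip5, a Rab11 effector, at 0.25 ± 0.09, Rims1, the active-zone partner of Rab3, at 0.15 ± 0.04, and Dennd6a, an exchange factor, at -0.30 ± 0.11. The other Rims1 spot lay on the other side, at -0.15 ± 0.18. The Rab11fip5 spot above background gave -0.54 ± 0.27 as deposited and -0.04 ± 0.08 with the trend removed. That of Dennd6a gave -0.41 ± 0.20 and 0.05 ± 0.10. The other Gcc2 spots ran from -0.27 to -0.01. The last was Golga2, the cis-Golgi tether that binds Rab1, at -0.29 ± 0.12 with the trend removed (adjusted p 0.671 in limma).

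Among the 8 effectors above background, 7 lay on the denominator side with the trend removed, against 49.6% of 3396 genes. Their median log2 ratio was -0.14, against 0.00 for all genes. In the turned fit 7 lay on that side, with a median of -0.09. The 5 exchange factors had a median of 0.05, and the 2 genes of the GDI and prenylation list, Gdi2 and Rabac1, stood at 0.02 ± 0.09 and 0.14 ± 0.12. The activator Tbc1d10a stood at 0.03 ± 0.09. No count over these lists was tested as a set.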

How the data were processed

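Accumbens RNA of cocaine-treated and saline-treated mice, 5 samples of each, was hybridised in pairs on 5 Agilent arrays. Per the labels' protocols, 50 ng of each total RNA went through linear amplification with Cy5 or Cy3 label. Images were read with Agilent Feature Extraction, per the submitters' processing notes, and neither its version nor a normalization is given in the sources used here. Values deposited by the authors are log2 ratios of the 2 channels, with no centring, since array medians lay between -0.69 and 0.60. Their numerator is not stated. Nothing says whether background was subtracted, and if it was not, the ratios of dim spots understate a change. Precision is limited by having 5 arrays.

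Of 44290 features, 500 without a gene stood at 0 throughout and were dropped, so 43790 were tested. Features were named through the platform annotation: 32042 had 1 symbol, 47 several and 12201 none. Of the first, 31906 matched a gene identifier in RefSeq (GRCm38.p6) and 0 symbols changed.

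In the 3 columns written with 15 digits the ratios are fractions of scanner counts (at least 99.94% of spots, relative tolerance 2e-14). The factor lost in each fraction was weighed jointly over these columns, with a chance of 0.5 for an even pixel number, a chance of a step of 0.5 counts of 0.3 for signals under 120 counts and 0.5 above, a spread of 0.18 between arrays and a lowest signal of 35 counts. Its mean gave the brightness of a spot. This model replaced an earlier one after these data were seen, the settings being compared by likelihood and by spots repeated for 1 accession, and it can be wrong by a factor of 2. A spot was above background over 7.5, since 8.32% of gene spots between 6.5 and 7.5 and 0% of those between 7.5 and 8 had background ratios on all arrays (within 2.5 median absolute deviations).

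Both fits were made in R 4.3.3 with lmFit and eBayes of limma 3.58.1. A treatment mean and a dye term were fitted, which leaves 3 residual degrees of freedom, and p-values were adjusted after Benjamini-Hochberg with a threshold of 0.05. Trends were removed by loess (span 0.3). Tables were made with Python 3.11.15, and both steps were tested on simulated data. Each spot is tested on its own, and gene values are means over the spots of a gene. Turning the signs of 5 arrays gives a smallest exact 2-sided p of 0.0625, so limma's p rests on its model. Where 2 cocaine samples are from 1 mouse, the p-values measure in part technical spread.

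The members, the role groups and the lists were chosen with earlier results of these data known. Array values are printed for the 3 Rab spots per side with the smallest p with the trend removed, the 3 with the smallest p as deposited, and one spot each of 10 Rabs chosen for their roles. Regulators and effectors at an unadjusted p under 0.05 are named. Alternatives covered the reading of the sign, the dye term, single arrays, normalization, array weights, thresholds and background correction. No sequence is printed, since no result bears on a promoter or probe.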

Additional observations from a re-analysis of the deposited data

How the results depend on the processing

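No Rab spot passed the threshold under any alternative that kept the reading of the sign, in the fit to the deposited ratios or with the brightness trend removed. Rab spots at an unadjusted p under 0.05 numbered from 0 to 38 in the first and from 0 to 3 in the second. The count of 38 came with quantile normalization, under which 23.4% of all features were at that level. The count of 3 came in 2 settings. With a brightness threshold of 7 it was 3 of 38 Rab spots, beside 424 of all spots tested there. With cocaine-in-Cy5 replicates 1 and 2 averaged it was 3 of 30, beside 244 of 3899 spots. The exception was the deposited fit with Cy5 over Cy3 on every array, which called 72 of 121 Rab spots, 96 of 138 spots of regulators and effectors and 34346 of 43790 features (78.4%). With the trend removed that reading called 0. Counting spots whose ratio lies outside the background ratios on at least 1 array, an alternative chosen after seeing the data, raised the Rab genes above background from 21 to 37, against 45.8% of all genes. A threshold of 7 gave 24 of 59, against 24.9% of all genes, and one of 8 gave 14, against 11.7%. With 1 array left out, the Rab median ran from -0.21 to -0.05 as deposited and from -0.08 to -0.01 with the trend removed. The highest deposited one, -0.05, came without cocaine-in-Cy5 replicate 1. Turning the sign of that array, also chosen after seeing the data, gave medians of 0.18 and 0.01, beside 0.19 and -0.01 for all genes. With 1 array left out, 5 named spots crossed 0, none of them called: Rab11a (-0.25 to 0.0414), Rab1a (-0.15 to 0.0070), Rab3a (-0.0261 to 0.0539), Rab5a feature 28288 (-0.11 to 0.0227) and Rab3c as deposited (-0.0518 to 0.0475). The range was also wide, without a change of side, for Rab2a feature 5285 (0.15 to 0.42), Rab1b feature 3663 (0.10 to 0.32), Rab5a feature 40248 (-0.33 to -0.11), Rab10 (-0.30 to -0.11), Rab6a (-0.34 to -0.16), Rab6b feature 7701 (-0.25 to -0.05) and Rab11b as deposited (-0.56 to -0.05). The value nearest 0 came without cocaine-in-Cy3 replicate 1 for Rab2a, Rab1b and Rab5a and without cocaine-in-Cy5 replicate 1 for the other 4. The causes were not tested. Array weights put nearly all weight on cocaine-in-Cy5 replicate 2 (31.8, against 0.17 to 0.76) and did not converge fully, so the 24 Rab spots at an unadjusted p under 0.05 there, beside 17% of all features, say little. Averaging cocaine-in-Cy5 replicates 1 and 2 called 0 in both fits. No paired analysis was possible because each array is itself a pair of mice and the replicate numbers follow the order of the samples. Spots near background limit the ratios of most Rab genes, 38 of 59.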

Other observations

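Below the brightness threshold, 91 Rab spots remained, of which 62 had background ratios on all 5 arrays and 29 did not. The 29 include spots of 16 genes with no spot above background, and the genes named here were chosen after their values were seen. Rab18, a Rab of the endoplasmic reticulum and lipid droplets, had a spot (feature 18532) with deposited log2 ratios of -1.76, -0.13 and 0.31 with cocaine in Cy5 and -1.02 and -0.34 with cocaine in Cy3. These follow the pattern of spots above background, and its treatment ratio was -0.60 ± 0.35 (SE, n = 5 arrays). Its other 2 spots had background ratios. Rab14, which acts between the Golgi and endosomes, had 3 such spots, with treatment ratios of -0.24 ± 0.19, -0.51 ± 0.33 and -0.21 ± 0.28. Both spots of Rab3b, a secretory paralogue of Rab3a, lay outside the background ratios, at -0.14 ± 0.11 and -0.30 ± 0.19. The other 22 Rab genes had background ratios in every spot, among them Rab8a and Rab8b of surface-bound carriers and Rab5b of early endosomes.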
